A study of Homo sapiens with 4 samples.

Results

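The regions described are the H4K5la peaks of chromosomes 10, 11 and 12, taken as every entry on those chromosomes in the deposited peak lists of DNAJC12KO and WT cells. There were 523 of them, 320 of DNAJC12KO and 203 of WT, out of 4680 peaks on chromosomes 1 to 22, X and Y (2743 in DNAJC12KO and 1937 in WT). H4K5la, lactylation of lysine 5 of histone H4, was mapped by chromatin immunoprecipitation and sequencing in SH-SY5Y, a human neuroblastoma line with features of sympathetic neurons. The mutant cells carried a knockout of DNAJC12 (DNAJC12KO), a gene on chromosome 10, and the wild-type (WT) cells were unmodified SH-SY5Y cells as far as the labels say. For each genotype there was 1 H4K5la library, 1 input library and 1 deposited list, labelled rep1. Whether the knockout line came from 1 clone is not given in the sources used here. With 1 library per genotype, no difference between DNAJC12KO and WT had a replicate check and none was tested. The lists hold no read counts, so sequencing depth is unknown, and depth and genotype cannot be told apart as sources of a difference in peak number.

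Histone lactylation is an acyl mark that draws on lactate through lactyl-CoA, and so ties chromatin to glycolytic flux. It was described at promoters and other active regions of the genome, where it shares many lysines with acetylation. DNAJC12 is a J-domain protein that helps aromatic amino acid hydroxylases to fold, and genes of that system lie on these chromosomes, among them TPH2 on chromosome 12, TH, TPH1 and PTS on chromosome 11, and DNAJC12 itself on chromosome 10.

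Few peaks reached the bases just upstream of an annotated start site, and those that did are the places where the mark can be read against promoter sequence. Printed here are the 250 bases before the start site, 5′ to 3′ on the gene's strand, from RefSeq's table of GRCh38.p14. Capitals mark the bases under the peak. H4C16, a gene for histone H4, is shown because its peak had by far the highest fold of the 523 (window chr12:14771132-14771381, minus strand, 157 of 250 bases under a DNAJC12KO peak). F2, the prothrombin gene, is shown because peaks of both lists overlapped at its start (chr11:46718963-46719212, plus strand, 170 bases under the DNAJC12KO peak). PAX2, a transcription factor of kidney and eye development (chr10:100745332-100745581, plus strand, 164 bases), and MOB2, a regulator of NDR kinases (chr11:1480887-1481136, minus strand, all 250 bases), are shown as further DNAJC12KO promoters. MIR200CHG, the host transcript of miR-200c, is shown with its miRNA (chr12:6962995-6963244, plus strand, 191 bases under a DNAJC12KO peak). PFKP, a phosphofructokinase of glycolysis, is shown because its window was touched by a WT peak (chr10:3104359-3104608, plus strand, 85 bases). That start site lies inside the PFKP record and is not its lower end. The PAX2 and MOB2 start sites used here also lie inside their gene records and not at an end of them.
H4C16: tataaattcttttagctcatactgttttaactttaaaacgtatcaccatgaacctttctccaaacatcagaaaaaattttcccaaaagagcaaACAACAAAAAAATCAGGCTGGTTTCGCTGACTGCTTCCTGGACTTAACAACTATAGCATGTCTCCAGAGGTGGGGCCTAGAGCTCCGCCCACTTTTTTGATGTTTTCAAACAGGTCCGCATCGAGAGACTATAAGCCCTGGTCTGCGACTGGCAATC
F2: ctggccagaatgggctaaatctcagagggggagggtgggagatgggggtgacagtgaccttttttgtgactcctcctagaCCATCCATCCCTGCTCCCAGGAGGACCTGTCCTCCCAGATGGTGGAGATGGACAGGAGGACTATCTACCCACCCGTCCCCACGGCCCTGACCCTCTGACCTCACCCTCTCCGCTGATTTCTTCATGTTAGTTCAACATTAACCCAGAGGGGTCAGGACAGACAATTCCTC
PAX2: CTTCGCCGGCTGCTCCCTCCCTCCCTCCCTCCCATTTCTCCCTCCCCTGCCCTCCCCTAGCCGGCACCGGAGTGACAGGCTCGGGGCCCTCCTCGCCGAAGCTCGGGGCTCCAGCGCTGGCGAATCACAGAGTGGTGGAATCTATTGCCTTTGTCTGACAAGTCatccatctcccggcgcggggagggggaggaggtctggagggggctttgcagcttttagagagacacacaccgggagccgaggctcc
MOB2: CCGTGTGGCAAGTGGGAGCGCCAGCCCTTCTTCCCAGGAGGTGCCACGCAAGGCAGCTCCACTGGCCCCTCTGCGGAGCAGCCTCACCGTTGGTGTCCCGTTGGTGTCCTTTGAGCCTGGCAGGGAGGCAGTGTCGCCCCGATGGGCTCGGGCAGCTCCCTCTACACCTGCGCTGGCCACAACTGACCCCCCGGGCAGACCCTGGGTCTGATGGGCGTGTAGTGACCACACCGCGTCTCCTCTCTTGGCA
MIR200CHG: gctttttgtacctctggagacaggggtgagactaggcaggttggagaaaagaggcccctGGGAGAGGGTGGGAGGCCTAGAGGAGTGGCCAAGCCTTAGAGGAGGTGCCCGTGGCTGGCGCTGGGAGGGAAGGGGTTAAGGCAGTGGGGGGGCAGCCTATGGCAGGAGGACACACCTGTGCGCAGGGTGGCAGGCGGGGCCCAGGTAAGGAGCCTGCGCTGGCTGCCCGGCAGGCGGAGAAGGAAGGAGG
PFKP: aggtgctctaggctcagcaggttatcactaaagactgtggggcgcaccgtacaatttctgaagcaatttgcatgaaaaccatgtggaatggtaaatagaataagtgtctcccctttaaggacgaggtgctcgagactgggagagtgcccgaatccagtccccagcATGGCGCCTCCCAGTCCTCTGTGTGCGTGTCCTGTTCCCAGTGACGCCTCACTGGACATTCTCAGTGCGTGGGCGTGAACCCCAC

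The H4C16 window had 6 CpG sites, 5 of them under the peak, and a GC content of 41.6%. Its TATAAA match was the first 6 bases of the window and lay outside the peak. Its GGGCGG match, read on the other strand as CCGCCC, lay under the peak. The MOB2 window held 14 CpG sites and the PAX2 window 15, with GC contents of 67.2% and 66.0%, and neither held any of the 4 motifs searched. Motifs were searched on both strands. They were TATAAA, known as the core of the TATA promoter box. Another was CCAAT, bound by factor NF-Y. The remaining ones were the GC box, GGGCGG, and, as the E-box, the palindrome CACGTG. None of them contains another. Of the 14 windows under a peak on chromosomes 10 to 12, 1 held TATAAA (7.14%), 3 CCAAT (21.4%), 3 GGGCGG (21.4%) and 0 CACGTG. Some of the 14 share a peak or overlap each other, so they are not 14 separate places. In all 35116 windows of the same length in the table the shares were 10.7%, 32.0%, 42.6% and 6.34%. In the 5287 windows of chromosomes 10 to 12 they were 10.8%, 33.3%, 40.8% and 6.11%. The median number of CpG sites was 6.5 under the peaks, 9 in the windows of chromosomes 10 to 12 and 11 in all windows. No difference was tested.

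Counting the 250 bases before and 50 after each start site, 10 of the 320 DNAJC12KO peaks touched a promoter window (3.13%, exact 95% interval 1.51 to 5.67%), against 1 of the 203 WT peaks (0.493%, 0.0125 to 2.71%). Over all chromosomes with such windows the shares were 2.15% of DNAJC12KO peaks and 1.67% of WT peaks. All intervals given here are exact binomial (Clopper-Pearson) intervals that cover counting error only and treat peaks as independent, which neighbouring peaks need not be.

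Of 217 miRNA hairpins on the 3 chromosomes, 4 lay within 500 bp of a peak. The share over the hairpins of all chromosomes is not given here, so this count is a description only. MIR200C lay 353 bp from the DNAJC12KO peak over its host transcript's start, and MIR378C lay 148 bp from a DNAJC12KO peak on chromosome 10. MIR7107, inside KDM2B, was overlapped by a WT peak, and MIR6744, inside MUC5B, lay 157 bp from one. The mature sequences of the miRNA beside a promoter peak and of the one under a peak are given from RefSeq with the seed (bases 2 to 8) in capitals, and the seeds differ.
hsa-miR-200c-3p: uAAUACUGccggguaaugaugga
hsa-miR-7107-5p: uCGGCCUGgggaggaggaaggg

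Chromosome 10 took a lower share of the DNAJC12KO list than of the WT list, chromosome 12 a higher share, and chromosome 11 lay between them. Chromosome 10 held 77 DNAJC12KO peaks (2.81% of that list, 2.22 to 3.50%) and 69 WT peaks (3.56%, 2.78 to 4.49%), a ratio of shares, DNAJC12KO over WT, of 0.788 (0.562 to 1.11). Chromosome 11 held 162 DNAJC12KO peaks (5.91%) and 102 WT peaks (5.27%), a ratio of 1.12 (0.870 to 1.45). Chromosome 12 held 81 DNAJC12KO peaks (2.95%, 2.35 to 3.66%) and 32 WT peaks (1.65%, 1.13 to 2.32%), a ratio of 1.79 (1.17 to 2.78). Of the 20 chromosomes whose WT number was 20 or more, ordered from the lowest ratio, chromosome 10 was number 1, chromosome 11 number 13 and chromosome 12 number 20. The low and the high share were known when these chromosomes were put together, so the ratios describe the lists and are not a test.

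The DNAJC12KO list was 1.42 times as long as the WT list. At that ratio the WT numbers correspond to 97.7 DNAJC12KO peaks on chromosome 10, 144 on chromosome 11 and 45.3 on chromosome 12. The DNAJC12KO list thus held 20.7 peaks fewer than that on chromosome 10, 17.6 more on chromosome 11 and 35.7 more on chromosome 12. In bases under peaks, DNAJC12KO covered 36.7 kb and WT 32.9 kb on chromosome 10. On chromosome 11 the figures were 84.1 kb in DNAJC12KO and 47.0 kb in WT, and on chromosome 12 they were 37.2 kb in DNAJC12KO and 13.3 kb in WT.

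Per 100 protein-coding genes, chromosome 10 had 10.5 DNAJC12KO and 9.40 WT peaks, chromosome 11 had 12.5 DNAJC12KO and 7.84 WT peaks, and chromosome 12 had 7.91 DNAJC12KO and 3.13 WT peaks. The other chromosomes together had 14.3 DNAJC12KO and 10.2 WT peaks per 100 genes. The WT density on chromosome 12 was therefore the lowest of these values, and the high ratio there stands on 32 WT peaks. The spacing of peaks was wide as well: the median gap between neighbours of 1 list was 145 kb in DNAJC12KO and 180 kb in WT, against 69.8 kb in DNAJC12KO and 68.9 kb in WT on the other chromosomes. Without the crowded chromosomes 7 and 17, the other chromosomes had median gaps of 120 kb in DNAJC12KO and 112 kb in WT.

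Peaks lay along the chromosomes in few stretches. In bins of 10 Mb, DNAJC12KO and WT numbers were correlated over the 42 bins (Pearson's r 0.939, Spearman's rho 0.882), a description, since bins share gene content and mappable sequence. Chromosome 11 numbers followed the number of protein-coding genes per bin (r 0.933 in DNAJC12KO and 0.922 in WT, 14 bins). Chromosome 12 numbers had lower values of r (0.521 in DNAJC12KO and 0.325 in WT), and those of chromosome 10 were near 0 (-0.001 in DNAJC12KO and -0.010 in WT). By rank the chromosomes lay closer together. Spearman's rho was 0.741 in DNAJC12KO and 0.797 in WT on chromosome 11, and 0.569 in DNAJC12KO and 0.524 in WT on chromosome 12. On chromosome 10 rho was 0.257 in DNAJC12KO and 0.437 in WT. Chromosome 10 had 1 bin without a peak of either list, chromosome 11 had 3, and chromosome 12 had 5, which together hold 193 protein-coding genes.

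**Figure D1:**
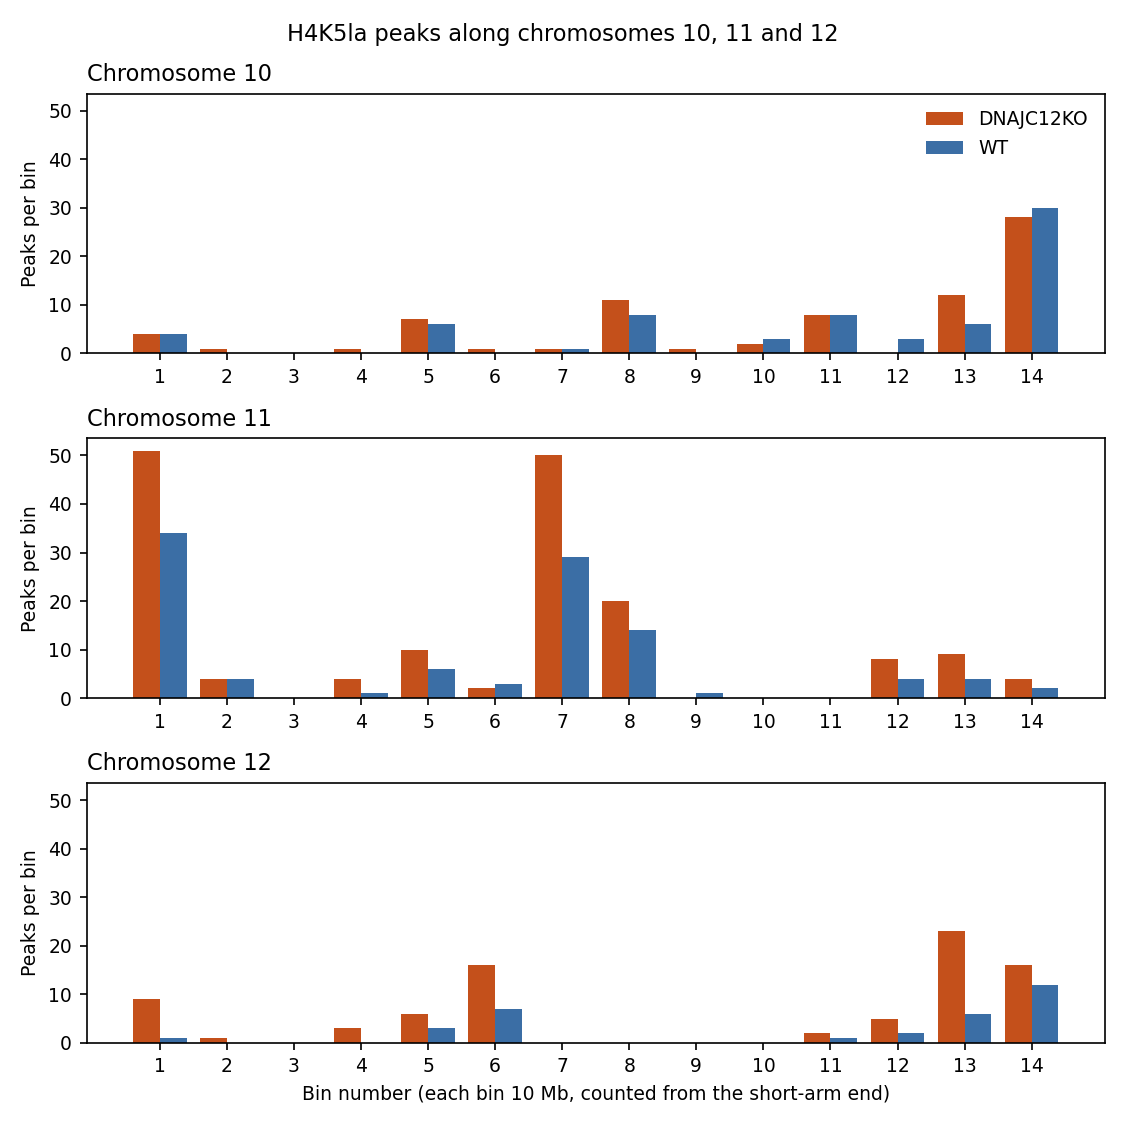
Number of H4K5la peaks in each 10 Mb bin of chromosomes 10, 11 and 12, counted from the short-arm end, in the DNAJC12KO (orange) and WT (blue) lists, 1 library each. The last bin of chromosome 10 holds 28 DNAJC12KO and 30 WT peaks, and bin 13 of chromosome 12 holds 23 DNAJC12KO and 6 WT peaks.

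On chromosome 10 the shortfall lay mostly in the last stretch of the long arm. The bin from 130 to 140 Mb held 28 DNAJC12KO and 30 WT peaks, where the list ratio gives 42.5 for DNAJC12KO. Without it, the ratio of shares on chromosome 10 was 0.882 (0.568 to 1.38). The bin from 110 to 120 Mb held 0 DNAJC12KO and 3 WT peaks, 1 of them in ABLIM1, an actin-binding LIM protein gene. Without both bins the ratio was 0.955 (0.608 to 1.51), and without the bin from 100 to 110 Mb as well, with 8 peaks in each list, it was 1.03 (0.619 to 1.72). These bins were picked because their DNAJC12KO numbers lay furthest below the list ratio. That choice favoured a rise of the ratio, so leaving them out is not a test. On the other side of the list ratio lay the bin from 120 to 130 Mb, with 12 DNAJC12KO and 6 WT peaks, and 4 bins with 1 DNAJC12KO and 0 WT peaks each. Without the bin from 120 to 130 Mb the ratio was 0.730 (0.508 to 1.05).

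On chromosome 12 the excess over the list ratio lay mostly in 3 bins, picked here for the largest excess in number of peaks. The bin from 120 to 130 Mb held 23 DNAJC12KO and 6 WT peaks, the bin from 0 to 10 Mb held 9 DNAJC12KO and 1 WT, and the bin from 50 to 60 Mb held 16 DNAJC12KO and 7 WT. Without the bin from 120 to 130 Mb the ratio was 1.58 (0.981 to 2.62), and without the first of the short arm too it was 1.40 (0.845 to 2.36). Without all 3 it was 1.31 (0.715 to 2.47), still above 1. Leaving out only the bin from 50 to 60 Mb raised the ratio to 1.84 (1.14 to 3.05). Within that bin, 50 to 55 Mb held 11 DNAJC12KO and 2 WT peaks, and 55 to 60 Mb held 5 of each list. The last bin, from 130 to 140 Mb, ran the other way, with 16 DNAJC12KO and 12 WT peaks, and without it the ratio was 2.29 (1.37 to 4.00). Thus the last 10 Mb bin of chromosome 12 stood near the list ratio, as 16.99 DNAJC12KO peaks correspond to 12 WT peaks, while the stretch just before it did not.

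The first of those stretches of chromosome 12 had 7 DNAJC12KO peaks before its only WT peak. They lay in IQSEC3, SLC6A13, CACNA2D4, CACNA1C and TEAD4, within 3 kb of an end of ERC1, and at 1 place farther from protein-coding genes, with folds from 3.36 to 4.29. Then followed a DNAJC12KO peak in PTPN6 and the one at MIR200CHG. The stretch from 120 to 130 Mb opened with 4 DNAJC12KO peaks in PXN and had 3 in PITPNM2. Its WT peaks included 1 each in ACADS, KDM2B, OGFOD2, CCDC92 and SCARB1.

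On chromosome 11 DNAJC12KO and WT peaks filled the same 3 bins. The bin from 0 to 10 Mb held 51 DNAJC12KO and 34 WT peaks, and the bin from 60 to 70 Mb held 50 DNAJC12KO and 29 WT. The bin from 70 to 80 Mb followed with 20 DNAJC12KO and 14 WT. Leaving out the bin from 60 to 70 Mb brought the ratio to 1.09 (0.802 to 1.48), and leaving out the one from 120 to 130 Mb with it brought it to 1.06 (0.773 to 1.46). Both were picked for the largest excess of DNAJC12KO peaks over the list ratio. That choice favoured a fall of the ratio, so leaving them out is not a test. Leaving out any single bin of chromosome 11 kept its ratio above 1.

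Clusters were defined as chains of peaks of both lists with gaps of at most 100 kb and at least 8 peaks. There were 8, and they held 69 of the 320 DNAJC12KO peaks (21.6%, 17.2 to 26.5%) and 61 of the 203 WT peaks (30.0%, 23.8 to 36.9%). Since a cluster was chosen by its peaks, its counts are a description.

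On chromosome 10 both clusters lay near the end of the long arm. The first, chr10:132065129-132809882, was 745 kb long and had 10 DNAJC12KO and 12 WT peaks, where 16.99 DNAJC12KO peaks correspond to the WT number. It ran through JAKMIP3, DPYSL4, STK32C, LRRC27, PWWP2B, INPP5A and CFAP46, and 7 of its 8 protein-coding genes carried a peak. INPP5A, a phosphatase that ends the signal of inositol trisphosphate, led it with 5 peaks. The second, chr10:133068752-133283229, had 4 DNAJC12KO and 7 WT peaks. KNDC1, a brain-enriched guanine nucleotide exchange factor of dendrite growth, and ADAM8 had 3 peaks each, and KNDC1 was put first by summed -log10 q. The cluster also held peaks in ADGRA1 and TUBGCP2. Inside both clusters the ratio of shares was 0.520 (0.241 to 1.09), and outside them, with 63 DNAJC12KO and 50 WT peaks, it was 0.886 (0.601 to 1.31).

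Chromosome 11 had 4 clusters. The first, chr11:197797-898588, began near the end of the short arm and held 16 DNAJC12KO and 12 WT peaks over 44 protein-coding genes, of which 22 carried a peak. CHID1, a chitinase-domain gene, had 4 peaks, all of DNAJC12KO, within 3 kb of its record or inside it. DEAF1 and LRRC56 also had 4 peaks, 2 of each list, and CHID1 was put first by summed -log10 q. The WT peaks of this cluster lay in PGGHG, IFITM1, ANO9, PTDSS2, LRRC56, PHRF1, CEND1, PIDD1 and the neighbours DEAF1 and TMEM80. The second, chr11:1011453-1562504, held 16 DNAJC12KO and 10 WT peaks and spanned the gel-forming mucin genes and BRSK2. The third, chr11:2739679-2933991, held 4 peaks of each list in and beside KCNQ1. The fourth, chr11:64740609-64912234, held 4 DNAJC12KO and 5 WT peaks and was led by ATG2A, a lipid transfer protein of autophagosome growth. Inside the 4 the ratio of shares was 0.911 (0.556 to 1.51), and outside them it was 1.21 (0.897 to 1.65).

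Chromosome 12 had 2 clusters. The first, chr12:57146443-57233764, held 3 DNAJC12KO and 5 WT peaks. Of these, 7 lay in LRP1, a large endocytic receptor, and 1 WT peak lay in SHMT2, a mitochondrial enzyme of serine metabolism. The second, chr12:132270123-132676497, held 12 DNAJC12KO and 6 WT peaks. It was led by FBRSL1, a relative of AUTS2, with 11 peaks, and POLE, the catalytic subunit of DNA polymerase epsilon, had 3. Inside the clusters the ratio of shares was 0.963 (0.413 to 2.32). Outside them, with 66 DNAJC12KO and 21 WT peaks, it was 2.22 (1.34 to 3.82). The clusters of chromosome 12 differed from each other: the 12 DNAJC12KO peaks at FBRSL1 stand against 8.50 at the list ratio, and the 3 at LRP1 against 7.08. On chromosome 10 the ratio was lower inside the clusters than outside. The difference between inside and outside was not tested.

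**Figure D2:**
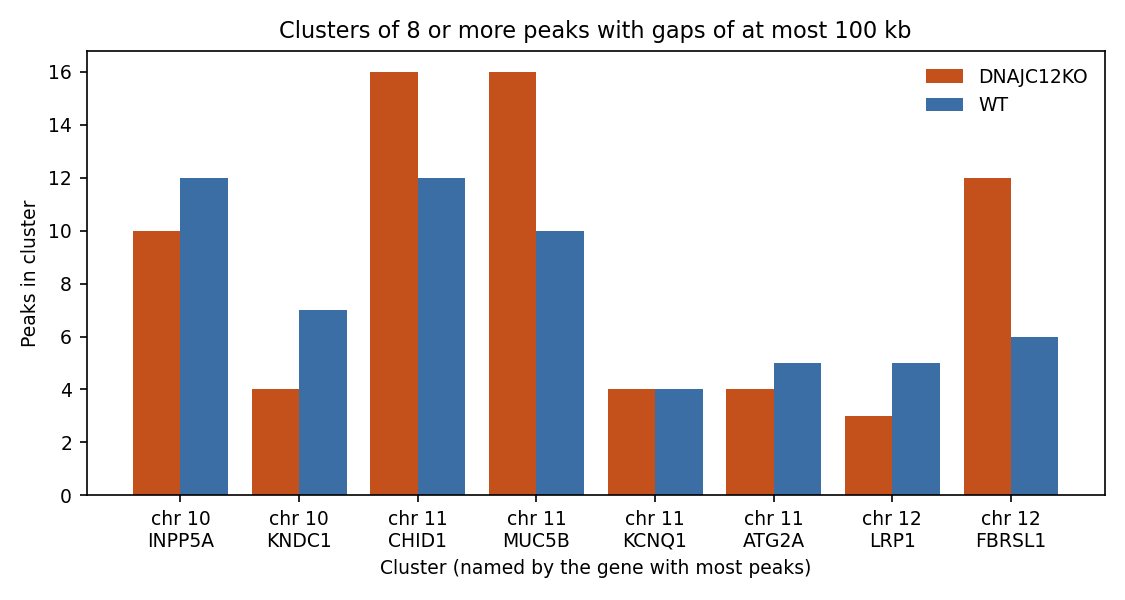
Peaks of the DNAJC12KO (orange) and WT (blue) lists in each of the 8 clusters, 1 library per genotype, named by chromosome and leading gene. WT peaks outnumber DNAJC12KO peaks in both clusters of chromosome 10 and in those led by ATG2A and LRP1, although the DNAJC12KO list is the longer one.

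**Figure D3:**
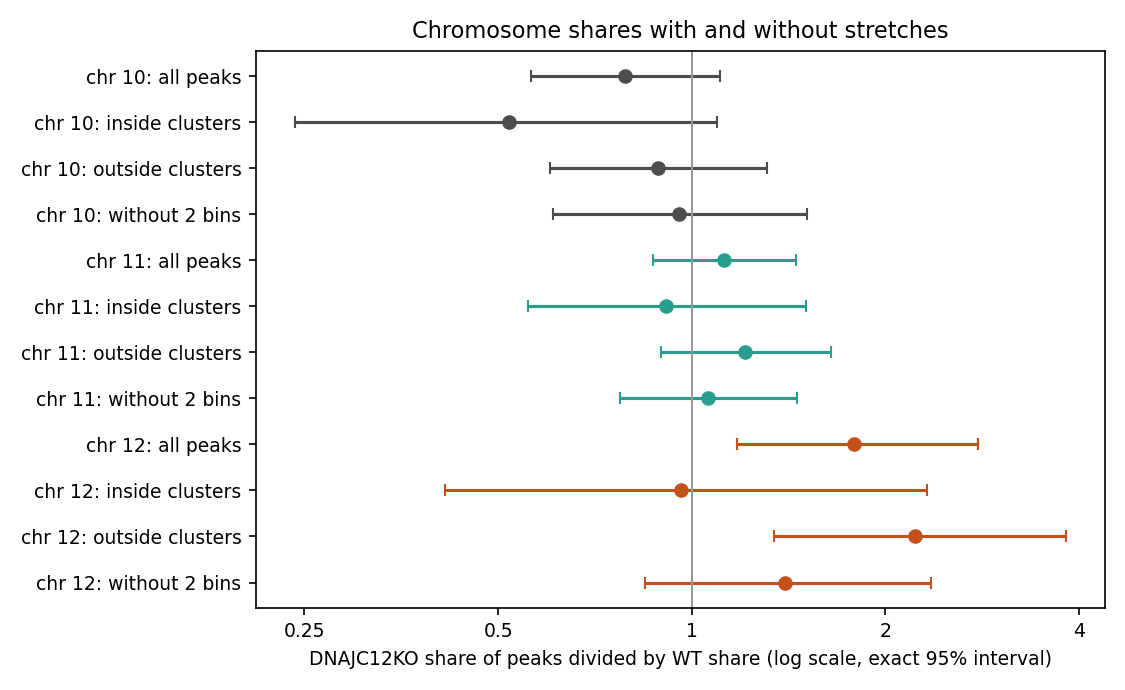
Ratio of the DNAJC12KO share to the WT share of peaks per chromosome, on a log axis, for all peaks, inside clusters, outside clusters, and without 2 bins; points are ratios and bars exact 95% intervals for counting error. The bins left out are 110 to 120 and 130 to 140 Mb on chromosome 10, 60 to 70 and 120 to 130 Mb on chromosome 11, and 0 to 10 and 120 to 130 Mb on chromosome 12. They are the 2 bins whose DNAJC12KO numbers lay furthest below the list ratio on chromosome 10 and furthest above it on chromosomes 11 and 12. Picking them in this way favoured a move of the ratios toward 1, so their removal is not a test. The ratio on chromosome 12 is 0.963 inside the clusters and 2.22 outside.

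The peaks of both lists rarely fell on the same bases. Of the DNAJC12KO peaks, 5 of 320 overlapped a WT peak (1.56%, 0.509 to 3.61%), and of the WT peaks 5 of 203 overlapped a DNAJC12KO peak (2.46%, 0.804 to 5.65%). Over all chromosomes the shares were 6.31% of DNAJC12KO peaks and 8.88% of WT peaks. On the other chromosomes without 7 and 17 they were 4.55% of DNAJC12KO and 6.48% of WT peaks. Chromosome 12 had 0 overlapping pairs. A peak of the other list lay within 10 kb of 47 DNAJC12KO peaks (14.7%) and 49 WT peaks (24.1%), against 29.7% of DNAJC12KO and 40.2% of WT peaks over all chromosomes.

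The 5 overlapping pairs stood at 5 genes. At GPRIN2, a G protein-regulated inducer of neurite outgrowth, the DNAJC12KO peak chr10:46553002-46553820 had a fold of 3.60 and the WT peak chr10:46553348-46553791 a fold of 3.50. Beside POLL, the gene of DNA polymerase lambda, the DNAJC12KO peak chr10:101578284-101578742 had a fold of 3.57 and the WT peak chr10:101578169-101578748 a fold of 3.61, 0.14 kb from the gene. At KNDC1 the DNAJC12KO peak chr10:133165574-133166052 had a fold of 3.77 and the WT peak chr10:133165482-133165770 a fold of 4.26. In each of these 3 pairs both folds lay within the range of the other peaks of chromosome 10. At PTDSS2, a phosphatidylserine synthase, the DNAJC12KO peak chr11:488798-490068 had a fold of 4.24 and the WT peak chr11:489194-489961 a fold of 4.09. At the F2 promoter printed above, the DNAJC12KO peak chr11:46719043-46719785 had a fold of 3.57 and the WT peak chr11:46719294-46719629 a fold of 4.72. The F2 start site at 46719213 lay under the DNAJC12KO peak, and the WT peak began inside the gene.

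Fold enrichment, the authors' own value for each peak over the background of the peak caller, was low and even. Its median was 3.72 in DNAJC12KO and 3.84 in WT peaks of the 3 chromosomes, and the median -log10 q was 1.46 in both. On chromosome 10 it ranged from 3.37 to 4.43 in DNAJC12KO and from 2.68 to 4.96 in WT. On chromosome 11 it ranged from 3.25 to 4.99 in DNAJC12KO and from 3.44 to 5.14 in WT. On chromosome 12 it ranged from 3.33 to 35.0 in DNAJC12KO, with 4.53 as the second highest value, and from 3.44 to 4.96 in WT. A fold of at least 4 was found for 60 DNAJC12KO peaks (18.8%) and 57 WT peaks (28.1%), close to the 17.3% of DNAJC12KO and 28.3% of WT peaks over all chromosomes. Folds of the 2 lists come from separate peak calling and are set side by side, not compared. Median peak width was 439 bp in DNAJC12KO and 406 bp in WT.

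**Figure D4:**
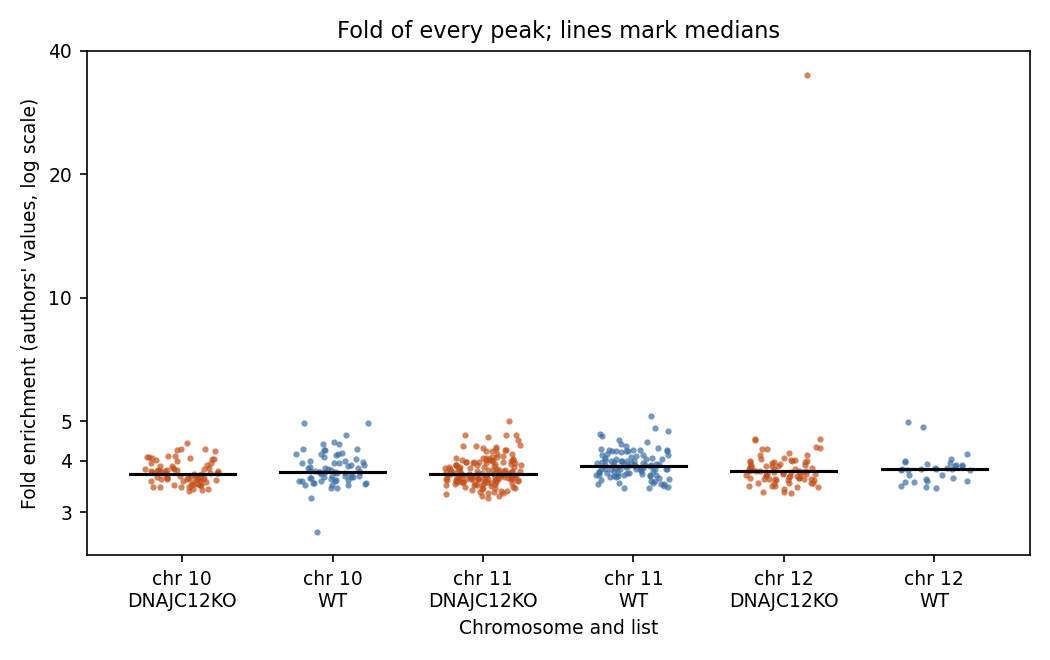
Fold enrichment of every peak of chromosomes 10, 11 and 12 (the authors' values, log axis), DNAJC12KO left of WT for each chromosome; points are peaks and lines medians. All peaks lie between 2.68 and 5.14 except the DNAJC12KO peak at H4C16, at 35.0.

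That exception was the H4C16 peak, chr12:14770606-14771288, with a fold of 35.0 and a -log10 q of 154. It covered the whole H4C16 record and 157 of the 250 promoter bases printed above. The nearest WT peak lay 9912 kb away. Of 5 histone genes on these chromosomes, only H4C16 carried a peak of either list in its record or within 3 kb. The histone gene H2AJ lay 3.12 kb from the H4C16 peak, just beyond that window. Of all 3059 protein-coding genes of these chromosomes, 7.52% carried a DNAJC12KO and 4.97% a WT peak.

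The other peaks of highest -log10 q were ordinary in fold. In DNAJC12KO they lay on chromosome 10 at chr10:131658368-131659056 (fold 4.43), 242 kb from PPP2R2D, a regulatory subunit of protein phosphatase 2A. The next stood 95.2 kb from BMS1, a ribosome assembly gene (fold 4.28), and 0.636 kb from CALML3, a calmodulin-like gene (fold 4.29). In WT they stood 17.2 kb from KAZALD1 (fold 4.95), 59.4 kb from ANTXRL (4.96) and inside ADAMTS14, a procollagen-processing protease gene (4.63). On chromosome 11 the first in DNAJC12KO were in TPCN2, an endolysosomal cation channel gene (fold 4.99), SHANK2 (4.61) and BRSK2 (4.61). Those of WT were in GDPD5, a glycerophosphodiester phosphodiesterase gene (fold 5.14), MRGPRF, an orphan receptor gene (4.82), and F2 (4.72). On chromosome 12 the DNAJC12KO peaks after H4C16 were in POLE (4.53) and LOC105370092 (4.50), and all 3 of WT were in FBRSL1 (4.96, 4.85 and 3.91). Of the 6 such peaks of chromosome 10, 3 lay outside annotated genes and 1 inside a protein-coding gene away from its ends.

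By position, 59.1% of DNAJC12KO and 58.1% of WT peaks lay inside a protein-coding gene away from its ends. Gene ends, taken as 3 kb to either side of the limits of a record, held a further 24.7% of DNAJC12KO and 27.1% of WT peaks, and 12.8% of DNAJC12KO and 11.3% of WT peaks lay outside annotated genes. Chromosome 10 had the most peaks outside genes, 22.1% in DNAJC12KO and 24.6% in WT, and the fewest at gene ends, 16.9% in DNAJC12KO and 11.6% in WT. On chromosome 11, 26.5% of DNAJC12KO and 35.3% of WT peaks lay at gene ends, and on chromosome 12 these shares were 28.4% of DNAJC12KO and 34.4% of WT peaks.

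Of 3059 protein-coding genes on the 3 chromosomes, 100 had a DNAJC12KO peak at an end (3.27%) and 74 a WT peak (2.42%), against 3.85% with a DNAJC12KO and 3.18% with a WT peak of all protein-coding genes. Both lists marked an end of 14 genes, among them POLL, PTDSS2, F2, KCNH3, NPAS4, ACADS and OGFOD2. The 14 were 14.0% of the genes with a DNAJC12KO peak at an end and 18.9% of those with a WT peak. Over all chromosomes these shares were 20.9% in DNAJC12KO and 25.3% in WT. Anywhere in the record or within 3 kb, 230 genes carried a DNAJC12KO peak (7.52%) and 152 a WT peak (4.97%), against 8.23% with a DNAJC12KO and 6.46% with a WT peak of all genes. Of these 64 carried both, which is 27.8% of the DNAJC12KO genes and 42.1% of the WT genes. Over all chromosomes genes with both were 35.5% of the DNAJC12KO genes and 45.2% of the WT genes. On chromosome 10, 45 genes carried a DNAJC12KO and 41 a WT peak, with 19 in common. On chromosome 11, 124 carried a DNAJC12KO and 87 a WT peak, with 36 in common. On chromosome 12, 61 carried a DNAJC12KO and 24 a WT peak, with 9 in common.

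Genes with several peaks mostly held them at different places in DNAJC12KO and WT. FBRSL1 on chromosome 12 had 5 DNAJC12KO and 6 WT peaks. The first 5 along the gene were all WT, from 132492868 to 132526460, and all 5 DNAJC12KO peaks lay from 132545880 to 132581222, with 1 WT peak among them. LRP1 had 3 DNAJC12KO and 4 WT peaks, and the 3 WT peaks from 57180450 to 57195922 stood between the first and the second DNAJC12KO peak. PXN, the gene of the focal adhesion protein paxillin, had 4 DNAJC12KO peaks (folds 3.45, 4.18, 3.80 and 4.00) between 120213838 and 120221501 and 0 WT peaks. Other genes with 3 peaks of 1 list and 0 of the other, chosen after their values were seen, were PITPNM2 and POLE in DNAJC12KO and ULK1, a kinase that starts autophagy, in WT.

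On chromosome 11, KCNQ1, a potassium channel gene of heart and inner ear, had 4 DNAJC12KO and 5 WT peaks. Its first peak was WT, at 2448822, then came all 4 DNAJC12KO peaks from 2580767 to 2739989, and then 4 WT peaks from 2792561 to 2849309. MUC5B, an airway mucin gene, had 3 DNAJC12KO and 5 WT peaks that alternated along the gene except for 2 WT peaks in a row at its upper end, with folds from 3.72 to 4.35 in DNAJC12KO and from 3.70 to 4.45 in WT. SHANK2, a scaffold gene of excitatory synapses, had 5 DNAJC12KO and 3 WT peaks. BRSK2, a kinase gene of neuronal polarity, had 3 DNAJC12KO and 4 WT peaks, and 1 of the WT peaks lay just beyond the end of the record. Peaks of both lists thus stood in each of these 4 genes, and none of them overlapped a peak of the other list.

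On chromosome 10, INPP5A had 2 DNAJC12KO and 3 WT peaks, of which a DNAJC12KO peak ending at 132751101 and a WT peak starting at 132751339 were neighbours. CDH23, a cadherin gene of the inner ear, had 3 DNAJC12KO peaks (folds 3.79, 3.83 and 3.74) and 1 WT peak (4.39), all between 65.7% and 97.9% of its length from the lower coordinate. PWWP2B, a chromatin-binding protein gene, had 1 DNAJC12KO peak (3.88) and 3 WT peaks (4.16, 3.76 and 4.18). JAKMIP3, a microtubule-interacting protein gene, had 3 DNAJC12KO peaks (3.80, 3.79 and 3.50) and 1 WT peak (4.26). SCART1, chosen after its values were seen, had 3 DNAJC12KO peaks within a few kb of each other at the end of the chromosome and 0 WT peaks.

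**Figure D5:**
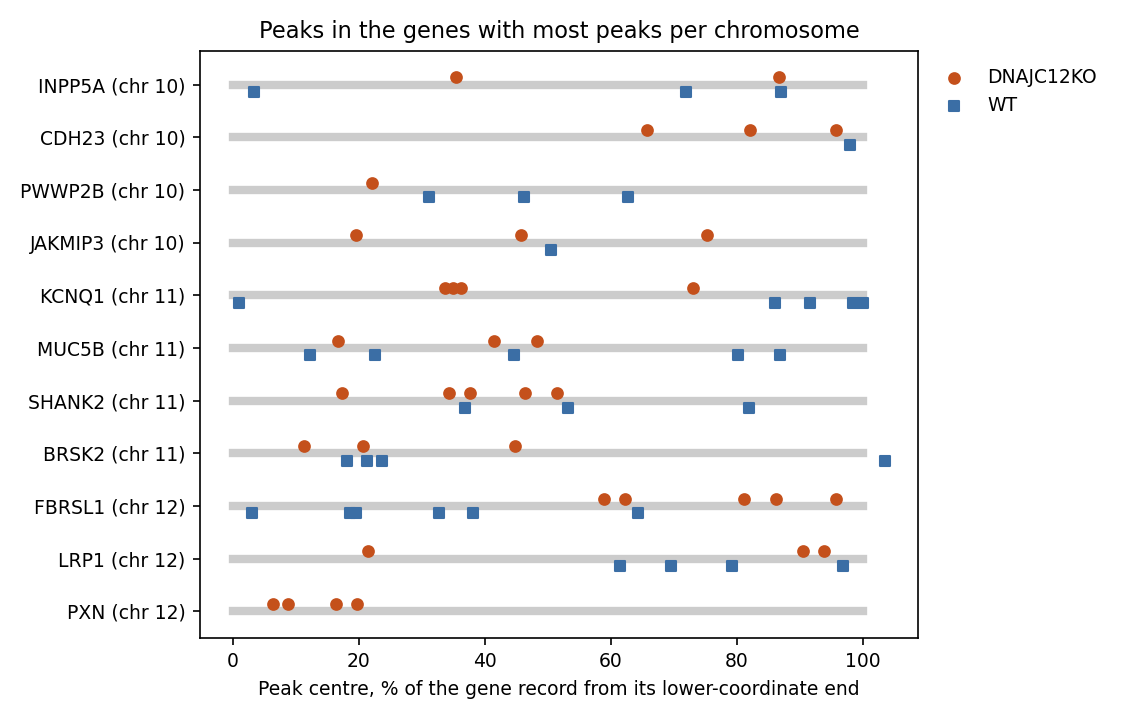
Position of each peak centre, in percent of the gene record from its lower-coordinate end, in genes with most peaks per chromosome, at most 4 of each; DNAJC12KO circles lie above and WT squares below each line. In KCNQ1 and FBRSL1 the peaks of each list form mostly separate runs, in MUC5B they mostly alternate, and PXN carries 4 DNAJC12KO peaks and 0 WT peaks.

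Of the genes of the hydroxylase system, TH carried a peak. TH, whose product makes L-DOPA from tyrosine, carried a DNAJC12KO peak, chr11:2170721-2171235, with a fold of 3.63, and its nearest WT peak lay 227 kb away. DNAJC12, TPH1, TPH2 and PTS carried 0 peaks in either list. The nearest peak to DNAJC12 lay 2126 kb away in DNAJC12KO and 2730 kb away in WT, so the lists do not check the knockout. For TPH2 it lay 14403 kb away in DNAJC12KO and 14705 kb in WT. For TPH1 it lay 375 kb away in DNAJC12KO and 219 kb in WT, and for PTS 1098 kb in DNAJC12KO and 4030 kb in WT. Of 8 genes of catecholamine vesicles, receptors and the cholinergic locus, and of 4 adrenergic identity genes of neuroblastoma, 0 carried a peak in either list. Peaks do not measure RNA, so this does not bear on the identity of the line. Beside these counts stand 7.52% of all 3059 protein-coding genes of these chromosomes with a DNAJC12KO and 4.97% with a WT peak. At those shares lists this short can hold 0 genes with a peak, and no difference was tested.

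Of 13 genes of glycolysis and lactate, 2 carried a DNAJC12KO peak and 1 a WT peak, beside 7.52% of all protein-coding genes of these chromosomes in DNAJC12KO and 4.97% in WT. No excess over those shares was tested. PFKP carried a DNAJC12KO peak starting at 3113474 (fold 3.77) and the WT peak over the window printed above (3.77), which did not overlap. PFKFB3, which makes the activator fructose 2,6-bisphosphate, carried a DNAJC12KO peak (3.64). LDHA and GAPDH carried none: the nearest peaks lay 752 kb away in DNAJC12KO and 596 kb in WT for LDHA, and 421 kb in DNAJC12KO and 1676 kb in WT for GAPDH.

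The imprinted region of the short arm of chromosome 11 held 12 listed genes, of which 3 carried DNAJC12KO and 3 WT peaks, 7 peaks in each list. KCNQ1 and OSBPL5, an oxysterol-binding protein gene, carried both, SLC67A1 (also named SLC22A18) carried DNAJC12KO peaks, and TSSC4 carried a WT peak. For IGF2, the fetal growth factor gene, the nearest peak lay 5.32 kb away in DNAJC12KO and 192 kb away in WT. For CDKN1C, a cyclin-dependent kinase inhibitor gene, it lay 24.4 kb away in DNAJC12KO and 33.9 kb away in WT. The 4 gel-forming mucin genes next to them all carried a DNAJC12KO peak, and MUC6 and MUC5B carried WT peaks, with 9 peaks in DNAJC12KO and 6 in WT. Beside both lists of genes stand all 1301 protein-coding genes of chromosome 11, of which 9.53% carried a DNAJC12KO and 6.69% a WT peak. The mucin genes lie in a cluster that was chosen by its peaks, and no excess over those shares was tested. MUC2 carried 4 DNAJC12KO peaks with folds from 3.67 to 4.63 and 0 WT peaks.

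Of 17 genes of neuronal structure and synapse, 5 carried peaks of both lists, with 11 peaks in DNAJC12KO and 12 in WT, beside 64 of all 3059 genes with peaks of both. They were SHANK2, BRSK2, SYT7, a calcium sensor of vesicle fusion, GRIK4, a kainate receptor subunit, and RIMBP2, a presynaptic active zone protein. NRXN2, a presynaptic adhesion gene, carried a WT peak only (fold 3.46). These genes are long, and no count here is adjusted for gene length.

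Of 22 genes of voltage-gated and related ion channels and their subunits, 5 carried DNAJC12KO and 3 WT peaks, beside 7.52% of all 3059 genes in DNAJC12KO and 4.97% in WT. KCNQ1 and KCNH3, a brain potassium channel gene, carried both. The calcium channel genes CACNA1C (fold 3.72), CACNA2D4 (3.53) and CACNB3 (3.90), all on chromosome 12, carried a DNAJC12KO peak each and 0 WT peaks. KCNK4, on chromosome 11, carried a WT peak; it encodes a potassium leak channel opened by stretch and not by voltage.

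Among histone modifiers, KMT2D, a methyltransferase of lysine 4 of histone H3, carried a DNAJC12KO peak (fold 3.99), and KDM2B, a lysine demethylase, carried a WT peak (3.98). Of 12 FGF and WNT ligands 1, FGF8, and of 9 HOXC genes 1, HOXC4 (fold 3.88), carried a DNAJC12KO peak, and 0 carried a WT peak. Beside the ligand and HOXC counts stand 7.52% of all 3059 genes with a DNAJC12KO and 4.97% with a WT peak. Lists this short give no firm share, and no difference was tested. The histone modifiers are named without a count for their list.

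Gene families differed in how many members carried a peak, and the shares of all 3059 protein-coding genes of these chromosomes to set beside them are 7.52% with a DNAJC12KO and 4.97% with a WT peak. Of 171 olfactory receptor genes on chromosome 11, OR8U9 had a DNAJC12KO peak within 3 kb of its record but not inside it, and 0 carried a WT peak. Of 27 keratin genes on chromosome 12, KRT82 carried a DNAJC12KO peak. The 11 keratin-associated protein genes of chromosome 11 and the 14 C-type lectin and 15 bitter taste receptor genes of chromosome 12 carried 0 peaks in either list. Of ZNF genes, 1 of 17 on chromosome 10, 1 of 6 on chromosome 11 and 1 of 14 on chromosome 12 carried a DNAJC12KO peak, and 0 carried a WT peak. Of solute carrier genes, 1 of 10 on chromosome 10, 4 of 26 on chromosome 11 and 2 of 23 on chromosome 12 carried a DNAJC12KO peak, against 0, 2 and 0 with a WT peak. No difference of a family from the shares of all genes was tested. A gene without a peak was below the peak caller's threshold in that library, which does not show that the mark was missing.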

How the data were processed

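Broad peaks were called by the authors, per the submitters' processing notes with MACS2 2.2.6 on the build hg38. Each deposited list was taken as that of 1 immunoprecipitated library, because the labels name it for that genotype. The sources used here do not give the aligner, filters, peak-calling options, control or any use of the spike-in chromatin. The deposited values are averages over each broad peak: a fold (a linear ratio to background), a -log10 p-value and a -log10 q-value. The lowest -log10 q was 1.01 in DNAJC12KO and 1.03 in WT. Columns of other samples numbered 0.

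Overlap was at least 1 bp, and the numbers of overlapping peaks over all chromosomes were the same with bedtools 2.31.1. The calculations used Python 3.11.15, numpy 2.4.6, scipy 1.17.1, pandas 2.3.3 and matplotlib 3.10.9. Only the overlap step was tested on simulated data. Peaks on other sequences (12 in DNAJC12KO, 6 in WT) were left out. Genes, promoters and miRNAs came from RefSeq tables of GRCh38.p14. Of the 3059 protein-coding genes, 2368 had a promoter entry. A gene end was within 3 kb of either end of a record. The interval of a ratio of shares came from the exact binomial interval of the DNAJC12KO part of the peaks. Coordinates are 1-based.

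Named genes were, per chromosome, the 4 protein-coding genes with most peaks (ties by summed -log10 q), those at or nearest to the 3 peaks of highest -log10 q per list, those at overlapping pairs, the leading gene of each cluster, and the members of 12 gene lists with a peak; DNAJC12 and H4C16 were named in any case. Some genes that this rule names are not reported here. Gene families and any further genes were picked with their values in view. The members and lists were chosen with earlier results of these data known. Alternatives concerned thresholds, totals, overlap, windows, gaps and bins.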

Additional observations from a re-analysis of the deposited data

How the results depend on the processing

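No paired analysis was possible because each genotype had 1 immunoprecipitated library, and for the same reason no replicate could be left out. The ratio of shares, DNAJC12KO over WT, was 0.788 on chromosome 10, 1.12 on chromosome 11 and 1.79 on chromosome 12. With only peaks of -log10 q of at least 2 it was 0.442 on chromosome 10, from 3 DNAJC12KO and 5 WT peaks, and 2.95 on chromosome 12, from 8 DNAJC12KO and 2 WT peaks. With only peaks of fold of at least 4 it was 3.46 on chromosome 12, from 15 DNAJC12KO and 5 WT peaks. With q of at most 0.05, an alternative chosen after seeing the data, it was 0.990 on chromosome 11, on the other side of 1. The cause was not tested. Under all other settings run for each chromosome (the cuts not named for it above, the total, the length of the list, covered bases and merging), the 3 ratios kept their side of 1, from 0.754 to 0.897 on chromosome 10, 1.05 to 1.25 on chromosome 11 and 1.73 to 1.96 on chromosome 12.

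The 5 DNAJC12KO peaks that overlapped a WT peak became 3 when 50% of the peak had to overlap, and 47 with centres at most 10 kb apart, while the 5 WT peaks became 49 with centres at most 10 kb apart. Both counts were 0 at a -log10 q of at least 2 and 1 at a fold of at least 4. Genes with a DNAJC12KO peak at an end numbered 100, and 52 with a window of 1 kb, 252 with 10 kb, 13 at a -log10 q of at least 2 and 25 at a fold of at least 4. Genes with a WT peak at an end numbered 74, and 33, 168, 6 and 28 under the same alternatives. The number of clusters was 7 with gaps of 50 kb and 10 with gaps of 200 kb. With bins of 5 Mb in place of 10 Mb, the single bin whose removal brought the ratio nearest to 1 changed on 2 chromosomes. On chromosome 10 it was 130 to 135 Mb (0.882, as with 10 Mb). On chromosome 11 it was 125 to 130 Mb (1.10) in place of 60 to 70 Mb (1.09). On chromosome 12 it was 50 to 55 Mb (1.65, 1.06 to 2.63) in place of 120 to 130 Mb (1.58, 0.981 to 2.62). The leading stretch on chromosomes 11 and 12 thus depended on the bin size.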
